A study of Mus musculus with 24 samples.

Results

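The 10 genes described here encode the NF-kappaB transcription factor subunits and the proteins that restrain them, out of 56691 genes listed in each of the 2 expression tables. They were chosen by gene symbol from textbook roles, with earlier results of these data known. They comprise the precursor subunits Nfkb1 and Nfkb2, the transactivating subunits Rel, Rela and Relb, the cytoplasmic inhibitors Nfkbia (IkB-alpha) and Nfkbie (IkB-epsilon), the nuclear IkB proteins Nfkbiz (IkB-zeta) and Bcl3, and Tnfaip3 (A20), a ubiquitin-editing enzyme. Each symbol matched exactly 1 row in both tables, and all 10 genes passed the filter on low values in both cell types.

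NF-kappaB dimers are held in the cytoplasm of resting macrophages by IkB proteins. LPS (lipopolysaccharide), which coats Gram-negative bacteria, acts through Toll-like receptor 4 to activate the IkB kinase complex, and the kinase marks IkB proteins for degradation so that dimers enter the nucleus. Several of the genes that NF-kappaB then switches on encode its own subunits and inhibitors, so the pathway is a textbook example of feedback.

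The study asked how loss of Olfml3, a gene encoding a secreted olfactomedin-like protein, alters macrophage responses. Poly(A) RNA was sequenced from 2 kinds of mouse macrophage, of wild type or Olfml3 knockout genotype, given phosphate-buffered saline (PBS) or 100 ng/mL LPS for 4 h, with 3 libraries in each of 8 groups. RAW264.7 is a mouse macrophage-like leukaemia cell line, and its knockout came from single-cell clones isolated after lentiviral delivery of guide RNAs, so clone and genotype cannot be told apart. Bone marrow-derived macrophages (BMDMs) were grown for 6 days in medium conditioned by L929 fibroblasts, from 8-week-old male C57BL/6 mice that were wild type or carried a global CRISPR-Cas9 deletion (Olfml3-/-). The study calls its replicates biological, but neither its text nor the labels say whether the libraries of a group came from separate cultures or animals, so p-values measure the spread between these libraries, which may be technical.

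Libraries held 11638273 to 16478616 counts in RAW264.7 cells and 17121240 to 22873094 in BMDMs, and the lowest count of any of the 10 genes in any library was 44. The genotype tag contradicts the sample title in 12 of 24 samples, and the labels do not settle which is right. Groups followed the titles, and every direction between the genotypes rests on that choice. Olfml3 was lower in the BMDM knockout (0.0167 ± 0.0115 against 0.597 ± 0.0611 FPKM with PBS, SD, n = 3 each). In RAW264.7 it was higher in the libraries labelled knockout, at 0.950 ± 0.275 against 0.163 ± 0.0231 FPKM with PBS and 18.7 ± 0.311 against 0.183 ± 0.0924 with LPS, so these are called the libraries labelled knockout throughout. FPKM, fragments per kilobase of exon scaled to the fragments of the library, is the scale of every level given here. The first RAW264.7 library labelled knockout with PBS stood apart: its counts gave chi-square values per degree of freedom of 80.3 and 81.1 against its 2 replicates, where the other pairs of RAW264.7 replicates gave 1.84 to 2.72, and several results that rest on it are given without it as well, for the pathway lists as a choice made after seeing the data. Without it 12.7% of all genes were higher and 8.11% lower between the RAW264.7 genotypes with PBS. In BMDMs, pairs of wild type libraries with LPS gave 4.76 to 10.4, and pairs within the other groups gave 1.76 to 2.68. Of 8 macrophage markers, 7 reached 1 FPKM in every RAW264.7 group (Mertk was at 0), and all 8 did in BMDMs. The summed marker level was 3340 to 3400 FPKM in wild type RAW264.7 libraries with PBS and 1140 to 1420 in those labelled knockout, and 3880 to 4010 and 1220 to 1280 with LPS, a difference whose part in the results below was not tested. A sum is led by the most abundant genes. By the limma fit described below, 4 of the 7 markers tested were called lower in RAW264.7 libraries labelled knockout. This held with PBS and with LPS, and the rest were not called. Of all genes, 3.77% were lower with PBS and 7.6% with LPS. In BMDMs the summed macrophage markers ran from 12400 to 17800 FPKM. Summed dendritic cell markers reached 10.1 FPKM in knockout-labelled RAW264.7 libraries with PBS and at most 1.36 in wild type. In each of these groups only 1 of the 5 markers reached a mean of 1 FPKM, and Flt3 and Cd209a were at 0. The defining neutrophil gene Ly6g was at 0 in all groups, and the T cell gene Cd3e likewise. Of 8 neutrophil and precursor markers, 2 reached 1 FPKM in every BMDM group and none in RAW264.7 groups, and their part in the results was not tested.

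Binding of NF-kappaB to its own regulators is written in their promoters as kappaB sites, so the RefSeq promoter windows (GRCm38.p6, 250 bases before to 50 bases after the annotated start) were searched on both strands for the 9-base words GGNNTTTCC and GGGNNTTCC, which can overlap. Windows were available for 7 of the 10 genes. Of the 10 windows that these genes had, 8 held a word, from 6 genes, against 9.83% of all 32851 windows (5.82% for each word). The Nfkb2 windows that start at 46305445 and 46305680 overlap and hold the same word, which is counted in each. Rela was the only one of the 7 genes whose window held neither. The bases upstream of the Nfkbia start, chr12:55492648-55492897 on the minus strand, are shown in full because 2 words stand in them, each in capitals.
Nfkbia: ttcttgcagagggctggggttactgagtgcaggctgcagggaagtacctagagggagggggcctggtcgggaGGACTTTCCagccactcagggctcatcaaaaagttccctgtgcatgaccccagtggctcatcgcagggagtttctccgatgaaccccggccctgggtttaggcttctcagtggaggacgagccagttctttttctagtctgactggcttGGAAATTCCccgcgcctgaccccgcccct
For the other genes only the word, in capitals, and its flanks are shown, read along the gene's own strand, to show how the words vary between the members. The word in the overlapping Nfkb2 windows, another Bcl3 word and matches that overlap a listed word are not shown.
Nfkb2 (chr19:46304688-46304716, plus strand): ggatcgtcacGGGAATTCCccccctcggg
Nfkb2 (chr19:46304717-46304736, plus strand): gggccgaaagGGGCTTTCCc
Rel (chr11:23771042-23771070, minus strand): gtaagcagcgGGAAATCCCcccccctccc
Nfkbie (chr17:45555585-45555613, plus strand): cagcaaacagGGGGATTCCggaggggcgg
Bcl3 (chr7:19822841-19822869, minus strand): cgcgggtccaGGAAACCCCtggggcggac
Tnfaip3 (chr10:19015416-19015444, minus strand): tcacgtgactGGAATTTCCatcggaaatc
Tnfaip3 (chr10:19015411-19015432, minus strand): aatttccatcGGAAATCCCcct
These matches describe letters in a window, and no binding was measured.

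In resting wild type RAW264.7 cells the inhibitor Nfkbia was the most abundant of the 10 transcripts, followed by Rela, Nfkb1, Nfkb2 and Rel. Nfkbia stood at 46.1 ± 2.75 FPKM and Rela at 18.5 ± 0.727 (SD, n = 3). The least abundant were Bcl3 at 2.02 ± 0.496, Nfkbiz at 1.85 ± 0.0794 and Tnfaip3 at 1.47 ± 0.172. Among neighbours in this order, only Relb and Nfkbie, and Bcl3 and Nfkbiz, had libraries that overlapped. FPKM divides by the length of all exons of a gene, which ranged from 1610 bases for Nfkbia to 12061 for Nfkb1, and a gene with many rarely used exons reads low on this scale.

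In resting wild type BMDMs Rela, at 22.2 ± 0.722 FPKM, and Nfkbia, at 21.6 ± 0.333, led the order with overlapping libraries, and every other neighbouring pair was separate. Nfkbiz was lowest at 2.06 ± 0.194 FPKM. Tnfaip3 stood at 8.02 ± 0.147 FPKM, in the middle of the order, and in resting RAW264.7 cells it was last. The tables were normalised separately and levels were not tested across cell types.

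**Figure D1:**
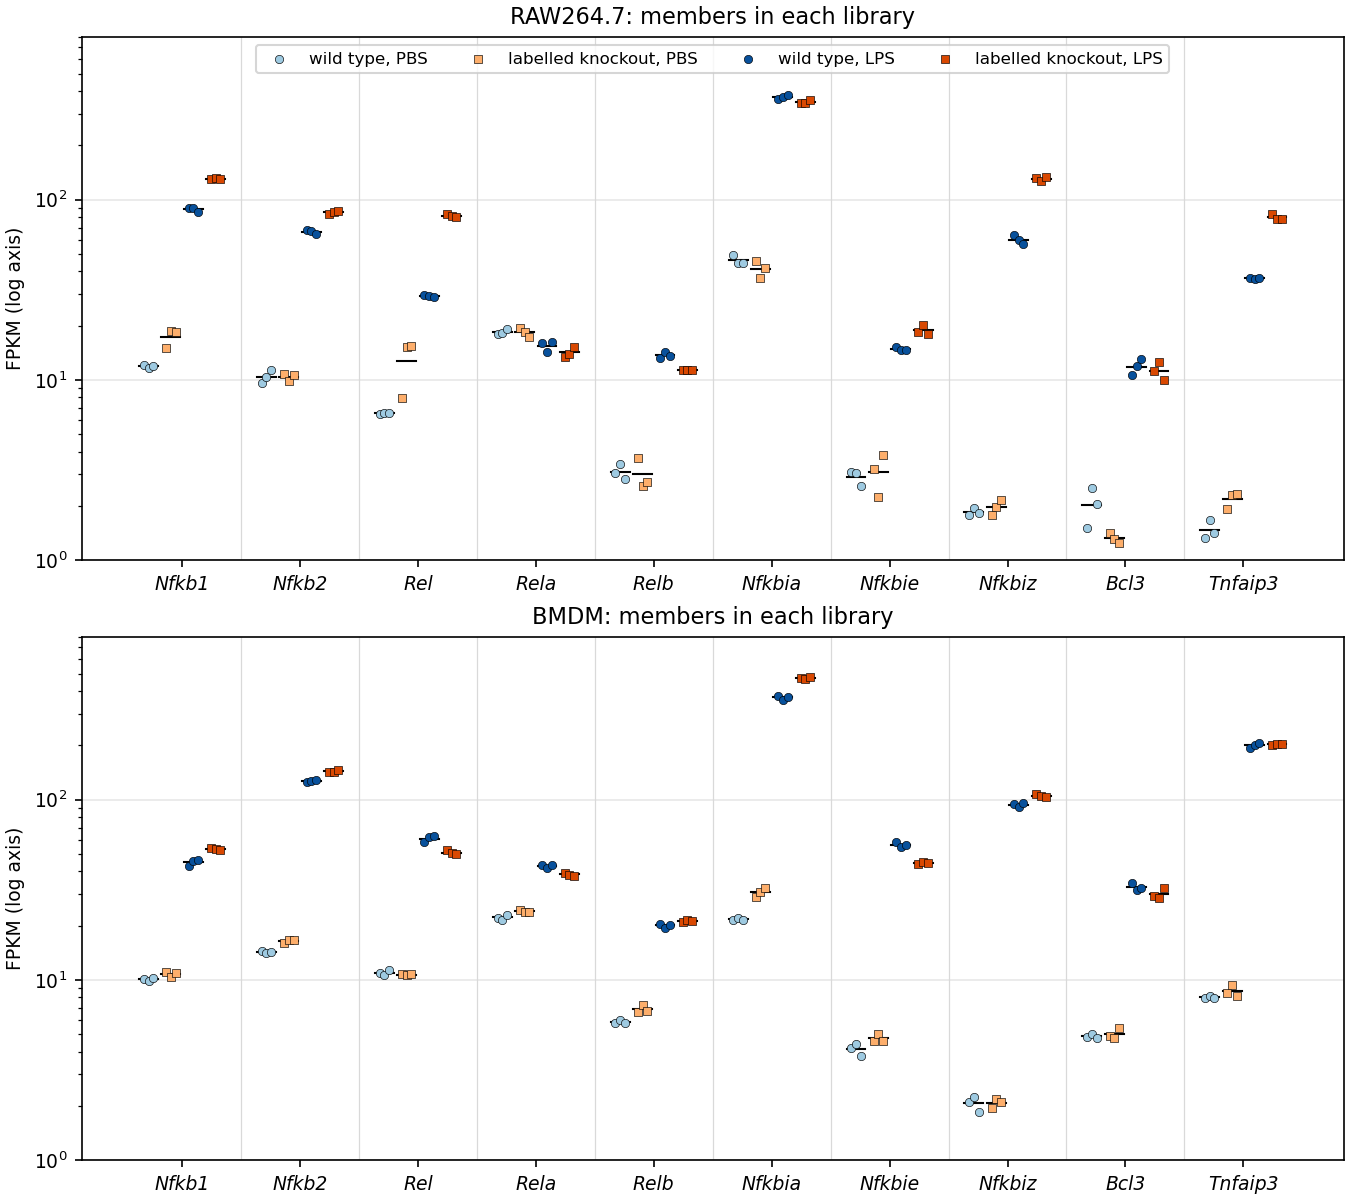
FPKM (log axis) of the 10 genes in each library of RAW264.7 cells (top) and BMDMs (bottom), with 3 points per group and a line at their mean. With LPS every gene but Rela sits above its PBS libraries in RAW264.7 cells, and all 10 do in BMDMs; the lowest PBS point of Rel in RAW264.7 cells labelled knockout, at 7.92 FPKM, is the library that stood apart.

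The first comparison asked how LPS changed these genes in wild type cells. In RAW264.7 cells 9 of the 10 genes rose and none fell, against 5.8% of all 26740 genes tested that rose and 12.5% that fell. In BMDMs all 10 rose and none fell, against 7.94% and 32.5% of 26973 genes. A gene counted as called when limma, fitted to log2(FPKM + 0.1), gave it a 1.5-fold or larger change with adjusted p below 0.05, and every log2 difference given here is on that scale. The shares of all genes include many low genes. Of the genes tested, 11336 in RAW264.7 cells and 10555 in BMDMs had a mean of 1 FPKM or more. In bulk RNA, fewer cells of a type and less RNA per cell cannot be told apart. The median difference of the 10 genes was 2.59 in RAW264.7 cells, beside -0.05 for all genes tested, and 2.93 in BMDMs, beside -0.3. By unadjusted p under 0.05, Rela was lower in RAW264.7 cells, and none of the 10 was lower in BMDMs; edgeR and DESeq2 called none lower in either.

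Among subunits, Nfkb1, which encodes the p105 precursor of p50, rose most in RAW264.7 cells. It stood at 12.1, 11.7 and 11.96 FPKM in the 3 wild type libraries with PBS and at 90.1, 89.6 and 85.2 with LPS, a log2 difference of 2.88 (SE 0.0895, adjusted p = 1.74e-08, limma). In BMDMs it went from 10.1 ± 0.162 to 44.9 ± 1.61 FPKM, a log2 difference of 2.14. In BMDMs Nfkb2, the p100 precursor of p52 that acts in the non-canonical pathway, had the largest rise among subunits, from 14.5, 14.2 and 14.3 to 126, 127 and 128 FPKM, a log2 difference of 3.14 (SE 0.0378, adjusted p = 9.3e-12, limma). In RAW264.7 cells it rose by 2.66 on the log2 scale.

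Rel (c-Rel), the subunit best known from lymphoid and myeloid activation, rose from 6.55 ± 0.0666 to 29.3 ± 0.386 FPKM in RAW264.7 cells and from 11 ± 0.375 to 60.7 ± 2.44 in BMDMs. Relb, the partner of p52, rose from 3.10 ± 0.308 to 13.7 ± 0.492 FPKM and from 5.84 ± 0.142 to 20.1 ± 0.574. In neither gene did the PBS and LPS libraries overlap.

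Rela (p65), the main transactivating subunit of the canonical dimer, was the exception. In RAW264.7 cells its wild type libraries stood at 17.9, 18.2 and 19.3 FPKM with PBS and 15.97, 14.3 and 16.2 with LPS, a log2 difference of -0.25 (SE 0.0858, adjusted p = 0.0606, limma) that was not called. Under median-ratio scaling, which centres the libraries on their typical gene, this difference was -0.01. In BMDMs Rela rose from 22.1, 21.6 and 23.0 to 43.4, 41.7 and 43.6 FPKM, a log2 difference of 0.95 (SE 0.0439, adjusted p = 3.3e-08, limma), the smallest rise of the 10 genes there.

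Nfkbiz, Tnfaip3 and Nfkbia rose more than any subunit in both cell types. Nfkbiz, a nuclear protein that is needed for a group of late LPS genes, went from 1.79, 1.94 and 1.82 to 63.2, 59.4 and 57.0 FPKM in wild type RAW264.7 cells, a fold change of 30.7 (log2 difference 4.94, SE 0.0865, adjusted p = 8.04e-10, limma). In BMDMs it went from 2.06 ± 0.194 to 93.3 ± 2.2 FPKM, a fold change of 43.3. It had the largest rise of the 10 genes in both cell types.

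Tnfaip3, which removes and adds ubiquitin chains on signalling proteins upstream of the kinase, followed. It stood at 1.33, 1.66 and 1.41 FPKM with PBS and 36.8, 36.0 and 36.7 with LPS in RAW264.7 cells, a fold change of 23.5 (adjusted p = 2.4e-09, limma), and rose from 8.02 ± 0.147 to 200 ± 6.86 FPKM in BMDMs, a fold change of 24.6. Its PBS and LPS libraries did not overlap in either cell type.

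Nfkbia, the inhibitor that resets the pathway, was the most abundant of the 10 transcripts in all 4 LPS groups. It rose from 49.3, 44.5 and 44.5 to 362, 373 and 379 FPKM in wild type RAW264.7 cells, a fold change of 8.05 (adjusted p = 1.52e-08, limma), and from 21.4, 22.0 and 21.5 to 377, 357 and 372 FPKM in BMDMs, a fold change of 17 (adjusted p = 1.15e-11, limma). Nfkbie, an inhibitor with a preference for Rel and Rela dimers, rose from 2.90 ± 0.288 to 14.8 ± 0.309 FPKM in RAW264.7 cells and from 4.14 ± 0.316 to 56.0 ± 1.74 in BMDMs, fold changes of 4.98 and 13.3. Bcl3, a nuclear partner of p50 and p52 homodimers, rose from 2.02 ± 0.496 to 11.8 ± 1.21 and from 4.86 ± 0.128 to 32.7 ± 1.39 FPKM.

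In cells of the knockout label, which are not independent of the comparisons by genotype because they share libraries, LPS again raised 9 genes in RAW264.7 cells, all but Rela, and all 10 in BMDMs. None fell. Of all genes tested, 7.45% rose and 14.6% fell in RAW264.7 cells, and 8.02% rose and 30.9% fell in BMDMs. The median of the 10 genes was 2.95, beside -0.07 for all genes, and 2.84, beside -0.28. Rela had an adjusted p of 0.00856 (limma) in RAW264.7 cells labelled knockout with a log2 difference of -0.37, short of 1.5-fold; it was -0.11 under median-ratio scaling, and neither edgeR nor DESeq2 called any of the 10 lower. Without the library that stood apart the same count of 9 was called, the median was 2.93 and Rela was at -0.33 (adjusted p = 0.013, limma). Against the FPKM scale, median-ratio scaling moved the LPS difference of genes at 1 FPKM or more upward by 0.24 and 0.26 in RAW264.7 cells and by 0.79 and 0.68 in BMDMs, so every BMDM rise was larger on that scale.

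**Figure D2:**
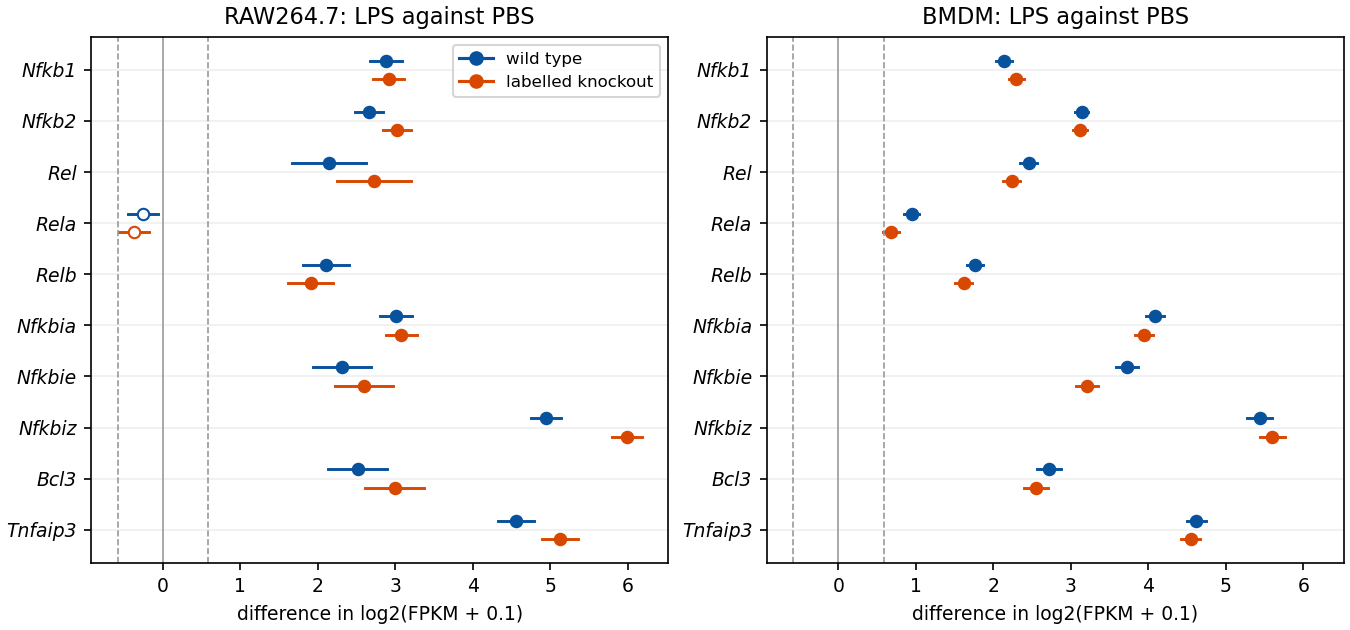
Difference in log2(FPKM + 0.1) between LPS and PBS for each gene in wild type (blue) and labelled knockout (orange) RAW264.7 cells (left) and BMDMs (right), with 95% intervals; filled points were called and dashed lines mark a fold change of 1.5. Nfkbiz and Tnfaip3 lie farthest to the right in both cell types, and the 2 open points are Rela in RAW264.7 cells.

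The second comparison asked whether the genotype changed these genes at rest. In RAW264.7 cells with PBS, 1 of the 10 genes was called, higher in the libraries labelled knockout, against 4.79% of all genes higher and 3.77% lower, and the median difference of the 10 was 0.03 beside 0.02 for all genes. That gene was Rel. It stood at 7.92, 15.1 and 15.4 FPKM in the libraries labelled knockout and at 6.47, 6.59 and 6.58 in wild type, with no overlap, a log2 difference of 0.90 (SE 0.212, adjusted p = 0.027, limma). The value of 7.92 came from the library that stood apart, and without it the difference was 1.21 (adjusted p = 8.41e-07, limma). Leaving out any of the other 5 libraries of the comparison gave 0.73 to 0.90 with adjusted p from 0.0748 to 0.101 (limma), so the call was then lost.

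Of the remaining genes at rest in RAW264.7 cells, Nfkb1 stood at 15.0, 18.6 and 18.3 FPKM in the libraries labelled knockout and 12.1, 11.7 and 11.96 in wild type, a fold change of 1.44 with an adjusted p of 0.00532 (limma). Tnfaip3 stood at 1.91, 2.31 and 2.34 against 1.33, 1.66 and 1.41 FPKM, a fold change of 1.46 with an adjusted p of 0.00975 (limma). Both were separate from wild type and short of 1.5-fold, and both were called without the library that stood apart, at log2 differences of 0.63 and 0.64. Bcl3, at 1.42, 1.31 and 1.24 FPKM against 1.51, 2.50 and 2.06, had a log2 difference of -0.55 (adjusted p = 0.0624, limma); it was the 1 gene of the 10 lower at an unadjusted p under 0.05, edgeR (-0.66, adjusted p = 0.0153) and DESeq2 (-0.67, adjusted p = 0.008) called it lower, and without the library that stood apart it was -0.60 (adjusted p = 0.0426, limma). The other 6 genes, Nfkb2, Rela, Relb, Nfkbia, Nfkbie and Nfkbiz, overlapped between the genotypes.

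With LPS, 3 genes were higher in knockout-labelled RAW264.7 libraries and none lower, against 9.73% of all genes higher and 7.6% lower. The median of the 10 was 0.35, beside 0 for all genes. None was lower at an unadjusted p under 0.05 by limma, or called lower by edgeR or DESeq2. The 3 were Rel, Nfkbiz and Tnfaip3, that is a subunit, a nuclear IkB protein and the ubiquitin-editing enzyme.

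Rel stood at 83.7, 81.1 and 79.9 FPKM in libraries labelled knockout with LPS and at 29.7, 29.3 and 28.9 in wild type with LPS, a fold change of 2.78 (log2 difference 1.47, 95% interval 1.00 to 1.95, adjusted p = 0.00135, limma). Nfkbiz stood at 131, 128 and 133 against 63.2, 59.4 and 57.0 FPKM, a fold change of 2.18 (log2 difference 1.13, 95% interval 0.93 to 1.32, adjusted p = 3.04e-05, limma). Tnfaip3 stood at 83.0, 78.5 and 78.0 against 36.8, 36.0 and 36.7 FPKM, a fold change of 2.18 (log2 difference 1.13, 95% interval 0.89 to 1.36, adjusted p = 8.84e-05, limma). For each of them every library labelled knockout lay above every wild type library.

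Nfkb1 and Nfkb2 were also separate but did not reach 1.5-fold. Nfkb1 stood at 131, 131 and 130 against 90.1, 89.6 and 85.2 FPKM, a fold change of 1.48 (adjusted p = 0.00232, limma), and Nfkb2 at 83.5, 85.9 and 86.0 against 67.4, 67.2 and 64.4, a fold change of 1.28 (adjusted p = 0.0119, limma). When FPKM was rescaled so that all genes of a library share 1 total (TPM), which moved the typical RAW264.7 gene by 0.19 and 0.23 between the genotypes with PBS and with LPS, both passed, at log2 differences of 0.80 and 0.59. Relb at 11.3, 11.3 and 11.4 against 13.3, 14.2 and 13.5 FPKM (adjusted p = 0.183) and Nfkbia at 345, 345 and 356 against 362, 373 and 379 FPKM (adjusted p = 0.543) lay below wild type in every library, and Nfkbie at 18.5, 20.1 and 17.9 against 15.2, 14.6 and 14.6 FPKM (adjusted p = 0.175) lay above, without passing limma's test. Rela and Bcl3 overlapped.

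**Figure D3:**
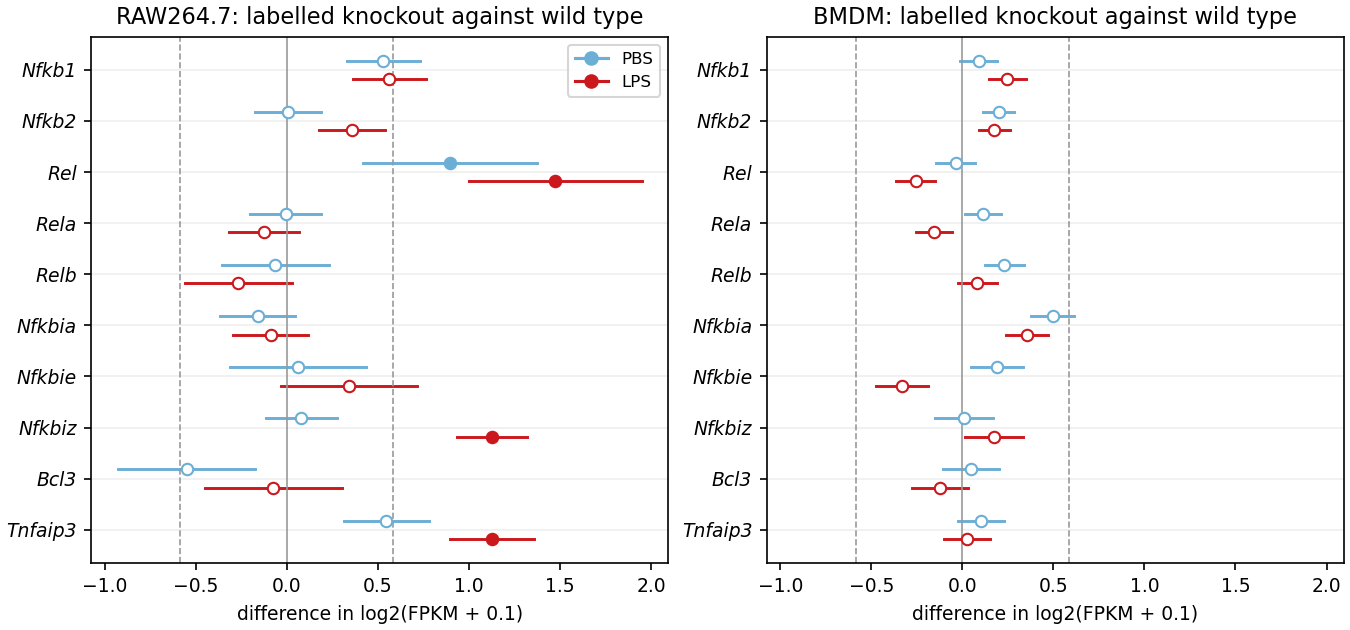
Difference in log2(FPKM + 0.1) between libraries labelled knockout and wild type for each gene with PBS (blue) and with LPS (red) in RAW264.7 cells (left) and BMDMs (right), with 95% intervals; filled points were called and dashed lines mark a fold change of 1.5 in either direction. The 4 filled points are Rel with PBS and Rel, Nfkbiz and Tnfaip3 with LPS, all in RAW264.7 cells, and in BMDMs every point lies between the dashed lines.

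In BMDMs none of the 10 genes was called between the genotypes with PBS, against 0.901% of all genes higher and 0.916% lower, and the median of the 10 was 0.11 beside 0.01. At an unadjusted p under 0.05 5 genes were higher and none lower, and edgeR and DESeq2 called none. The share of all genes at that looser limit is not given here, so the count of 5 has no background. Nfkbia had the largest difference. It stood at 28.7, 30.6 and 32.4 FPKM in the knockout and 21.4, 22.0 and 21.5 in wild type, a fold change of 1.41 (log2 difference 0.50, SE 0.0518, adjusted p = 0.000517, limma). Nfkb2, at 16.4 ± 0.304 against 14.3 ± 0.142 FPKM (adjusted p = 0.0173, limma), and Relb, at 6.86 ± 0.311 against 5.84 ± 0.142 (adjusted p = 0.0284, limma), also passed the test on p and not on fold change.

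With LPS again none of the 10 was called in BMDMs, against 3.23% of all genes higher and 1.53% lower, and the median was 0.05 beside 0.04. At an unadjusted p under 0.05, for which no share of all genes is given here, 4 were higher and 3 lower. Neither edgeR nor DESeq2 called any at 1.5-fold. The genes of the pathway did not lie on 1 side. Nfkbia stood at 472, 465 and 479 against 377, 357 and 372 FPKM, a fold change of 1.28 (adjusted p = 0.0013, limma), and Nfkb1 at 53.6, 53.3 and 52.7 against 43.0, 45.5 and 46.1 FPKM, a fold change of 1.19 (adjusted p = 0.00459, limma). Nfkb2 stood at 144 ± 1.38 against 127 ± 1.12 FPKM (adjusted p = 0.0101, limma).

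Rel, Rela and Nfkbie lay on the other side in BMDMs with LPS. Rel stood at 52.2, 50.3 and 49.8 against 57.9, 61.7 and 62.5 FPKM, a fold change of 0.837 (adjusted p = 0.00488, limma). Nfkbie stood at 44.2, 45.2 and 44.3 against 57.8, 54.4 and 56.0 FPKM, a fold change of 0.795 (adjusted p = 0.00569, limma), and Rela at 39.3, 38.2 and 37.9 against 43.4, 41.7 and 43.6 FPKM, a fold change of 0.898 (adjusted p = 0.0363, limma). For all 3 the knockout libraries lay below every wild type library. Median-ratio scaling moved the typical BMDM gene in this comparison by -0.15, so on that scale Rel, Rela and Nfkbie differed by -0.41, -0.31 and -0.49, and Nfkbia, Nfkb1 and Nfkb2 by 0.20, 0.09 and 0.02. Tnfaip3, at 202, 204 and 205 against 192, 202 and 206 FPKM, and Bcl3 overlapped between the genotypes.

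The third comparison asked whether the response to LPS differed between the genotypes, by the interaction term of the same fit. In RAW264.7 cells 1 gene was called higher, Nfkbiz, and none lower, against 0.905% of all genes higher and 1.04% lower, and the median of the 10 was 0.32 beside -0.01. None of the 10 was lower at an unadjusted p under 0.05 or called lower by edgeR or DESeq2. LPS multiplied Nfkbiz 30.7-fold in wild type and 63.6-fold in cells labelled knockout, a difference of responses of 1.05 on the log2 scale (SE 0.122, adjusted p = 0.00217, limma), and without the library that stood apart it was 0.98 (adjusted p = 8e-04, limma). The Nfkbiz libraries with PBS, at 1.77, 1.96 and 2.16 against 1.79, 1.94 and 1.82 FPKM, overlapped.

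Tnfaip3 responded 23.5-fold in wild type and 35.1-fold in cells labelled knockout, a difference of 0.58 (adjusted p = 0.101, limma) that DESeq2 called at 0.59 (adjusted p = 0.00125), and so did limma with a pseudocount of 1, at 0.74 (adjusted p = 0.00148). In edgeR it was 0.57 (adjusted p = 0.0282), short of 1.5-fold, and without the library that stood apart 0.49 (adjusted p = 0.0516, limma). Rel responded 4.42-fold and 6.6-fold, also a difference of 0.58, with a wider error (SE 0.3, adjusted p = 0.576, limma), and without the library that stood apart the difference was 0.27 (adjusted p = 0.0527). For Nfkb1 the responses were 7.36-fold and 7.54-fold, a difference of 0.03 with a 95% interval of -0.25 to 0.32.

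In BMDMs no interaction was called for the 10 genes, against 1.91% of all genes higher and 1.02% lower, and the median was -0.14 beside 0.05. At an unadjusted p under 0.05, again with no share of all genes given here, 1 gene was higher and 3 lower. Nfkbie came closest. LPS multiplied it 13.3-fold in wild type and 9.24-fold in the knockout, a log2 difference of -0.52 (SE 0.0896, adjusted p = 0.00907, limma), just short of 1.5-fold. It was past that limit under median-ratio scaling at -0.63 (adjusted p = 0.00306, limma), and edgeR and DESeq2 each called this gene lower and no other. Rela, with responses of 1.93-fold and 1.6-fold, had a difference of -0.27 (adjusted p = 0.0345, limma).

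The mix of subunit transcripts was described by the share of each in the summed FPKM of the 5 subunit genes of a library, a ratio that does not depend on library scaling. In wild type RAW264.7 cells Rela made up 36.6% ± 0.43 of the sum with PBS and 7.27% ± 0.566 with LPS, while Nfkb1 went from 23.6% ± 0.895 to 41.4% ± 0.464 (SD, n = 3). The sum itself went from 50.4 to 213 FPKM. In wild type BMDMs Rela went from 35.0% ± 0.501 to 14.5% ± 0.416 and Nfkb2 from 22.6% ± 0.397 to 43.0% ± 0.33. Nfkb1 changed little there, at 15.8% to 15.9% with PBS and 14.8% to 15.4% with LPS. None of the Rela, Nfkb1 or BMDM Nfkb2 shares overlapped between PBS and LPS.

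The share of Rel separated the genotypes with LPS in both cell types and on opposite sides. In knockout-labelled RAW264.7 libraries it was 24.8% to 25.9%, against 13.6% to 13.9% in wild type. In BMDMs it was 16.2% to 16.9% in the knockout and 19.9% to 20.9% in wild type. With PBS it was 14.0% to 23.8% in knockout-labelled RAW264.7 libraries, the lowest being the library that stood apart, against 12.7% to 13.2% in wild type. In BMDMs with PBS it was 15.5% to 15.6% against 17.0% to 17.6%.

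The balance of inhibitor to subunit was described by the log2 ratio of Nfkbia to Rela in a library. With LPS it was 4.59 ± 0.107 in wild type and 4.62 ± 0.0706 in labelled knockout RAW264.7 cells, with overlapping libraries. In BMDMs it was 3.10 ± 0.0115 in wild type and 3.62 ± 0.0392 in the knockout, with no overlap, and with PBS it was -0.0389 ± 0.064 and 0.348 ± 0.106, again with no overlap. The BMDM knockout thus had more Nfkbia per Rela transcript in every library.

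**Figure D4:**
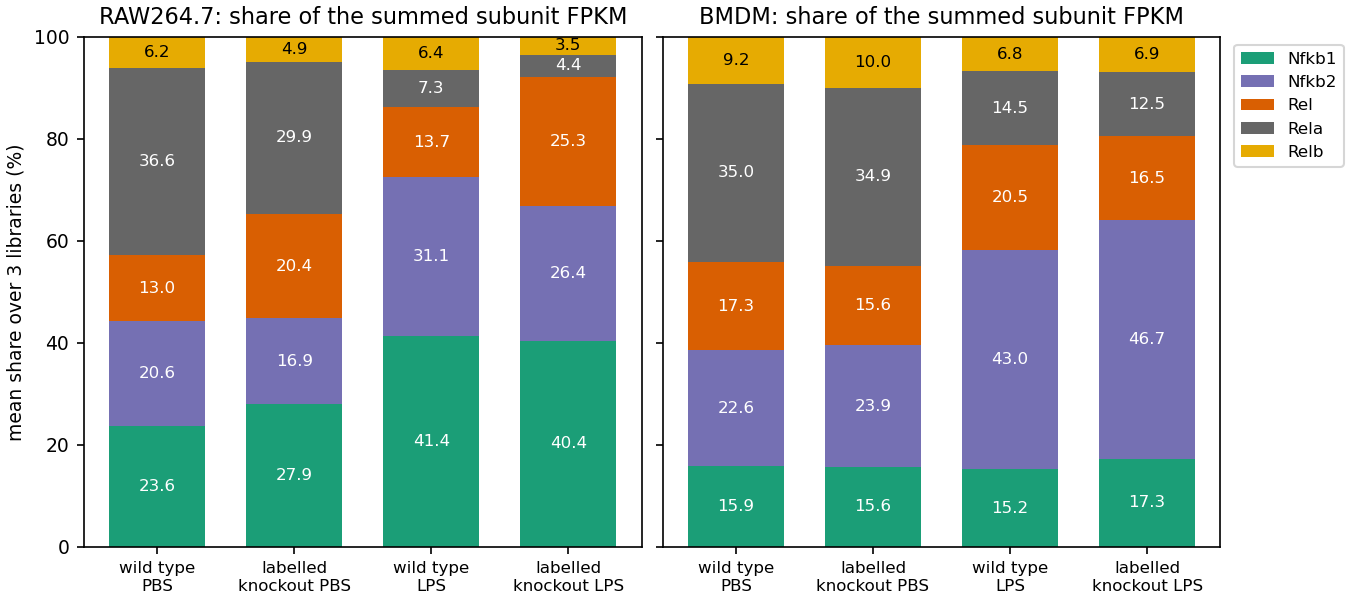
Mean share (%, n = 3 libraries) of Nfkb1, Nfkb2, Rel, Rela and Relb in their summed FPKM in each group of RAW264.7 cells (left) and BMDMs (right). With LPS the Rela segment shrinks from 36.6% to 7.27% in wild type RAW264.7 cells and from 35.0% to 14.5% in wild type BMDMs, and the Rel segment is 25.3% in labelled knockout against 13.7% in wild type RAW264.7 cells.

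The genes around the 10 were taken from lists of the pathway, also chosen with earlier results of these data known. Of 9 other IkB proteins and A20 partners, LPS raised 6 in wild type RAW264.7 cells and 4 in wild type BMDMs, where it lowered 1, against 5.8% of all genes raised and 12.5% lowered in RAW264.7 cells and 7.94% and 32.5% in BMDMs. Tnip1 and Tnip3, which encode A20-binding proteins, rose by 2.85 and 1.16 on the log2 scale in RAW264.7 cells and by 2.15 and 4.10 in BMDMs, and Nfkbib, encoding IkB-beta, by 1.80 and 2.82. Between the genotypes 1 of the 9 was higher with LPS in each cell type: Itch, a ubiquitin ligase that works with A20, at 8.76 ± 0.137 against 5.23 ± 0.176 FPKM in RAW264.7 cells, and Nfkbid, a nuclear IkB protein, at 6.20 ± 0.278 against 3.75 ± 0.365 in BMDMs. Nfkbid differed by 0.71 on the log2 scale. Under median-ratio scaling it differed by 0.56 and in edgeR by 0.58, both short of 1.5-fold. The counts for all lists were made on the FPKM scale alone. The shares of all genes higher were 9.73% and 3.23%, so 1 of 9 was near the background. With PBS none of the 9 was called in either cell type. Without the RAW264.7 library that stood apart 1 was higher and 1 lower, against 12.7% and 8.11% of all genes.

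Of 11 genes of the IkB kinase complex and its upstream kinases, LPS raised 4 and lowered 1 in wild type RAW264.7 cells and raised 5 and lowered 3 in wild type BMDMs. The shares of all genes were 5.8% raised and 12.5% lowered in RAW264.7 cells and 7.94% and 32.5% in BMDMs, so the lowered genes were near the background. Ikbke, an inducible IkB kinase relative, went from 0.890 ± 0.0557 to 35.2 ± 0.552 FPKM in RAW264.7 cells and from 11.9 ± 0.415 to 33.9 ± 1.3 in BMDMs. Map3k14, the kinase of the non-canonical pathway, fell in RAW264.7 cells from 4.67 ± 0.165 to 2.49 ± 0.28 FPKM. With LPS, 2 of the 11 were higher in knockout-labelled RAW264.7 libraries, Tab3 and Map3k7, an adaptor and the TAK1 kinase, by 0.85 and 0.62, against 9.73% of all genes higher, and none in BMDMs. With PBS none of the 11 was higher and 1 lower in RAW264.7 cells, against 4.79% and 3.77% of all genes. Without the library that stood apart 3 were higher and 1 lower, against 12.7% and 8.11% of all genes.

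Of 16 TRAF, cIAP and ubiquitin enzyme genes, 3 were higher and 2 lower in knockout-labelled RAW264.7 libraries with LPS, against 9.73% of all genes higher and 7.6% lower. Birc2 and Birc3, which encode the ubiquitin ligases cIAP1 and cIAP2, stood at 26.0 ± 1.22 against 7.39 ± 0.0954 and 60.8 ± 0.453 against 26.0 ± 0.738 FPKM, and both were higher with PBS too, by 1.00 and 1.29, and by 1.10 and 1.36 without the library that stood apart. With PBS 2 of the 16 were higher and 2 lower, against 4.79% and 3.77% of all genes. Without that library the counts were 5 and 2, against 12.7% and 8.11% of all genes. None of the 16 was called between the BMDM genotypes with LPS. LPS raised Traf1, Peli1 and Birc3 in both cell types and genotypes, with Traf1 at 41.1 ± 0.171 against 1.63 ± 0.3 FPKM in wild type RAW264.7 cells.

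Textbook target genes of NF-kappaB were counted in the same way. LPS raised 31 of 31 tested in RAW264.7 cells, with a median of 5.39, and 30 of 32 in BMDMs, with a median of 4.72, and lowered none, against 5.8% and 7.94% of all genes raised. Between the genotypes with LPS, 4 were higher and 10 lower in knockout-labelled RAW264.7 libraries, with a median of -0.10, and 10 were higher and none lower in the BMDM knockout, with a median of 0.29. Of all genes 9.73% were higher and 7.6% lower in RAW264.7 cells and 3.23% and 1.53% in BMDMs, so the 4 higher of 31 were near the background. With PBS the counts were 2 higher and 11 lower in RAW264.7 cells and none higher and 2 lower in BMDMs. The shares of all genes were 4.79% and 3.77% in RAW264.7 cells and 0.901% and 0.916% in BMDMs. Without the RAW264.7 library that stood apart the counts were 2 and 12, against 12.7% and 8.11% of all genes. In RAW264.7 cells with LPS Ccl2, a monocyte chemokine, was at 3.53 ± 0.433 against 116 ± 3.01 FPKM, and Ier3, an early response gene, at 74.8 ± 2.87 against 553 ± 15.6. In BMDMs with LPS the neutrophil chemokine Cxcl2 was at 112 ± 3.23 against 29.2 ± 1.98 FPKM.

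Beside Nfkbiz, 8 genes known to need IkB-zeta were read; 5 of them, 62.5%, are also among the 32 textbook targets, of which they make up 15.6%. LPS raised all 8 in wild type cells of both kinds, against 5.8% of all genes raised in RAW264.7 cells and 7.94% in BMDMs. In knockout-labelled RAW264.7 libraries with LPS, where Nfkbiz was higher, 2 of the 8 were higher and 3 lower, with a median of 0.04, against 9.73% and 7.6% of all genes. Il6, an acute-phase cytokine, was higher at 100 ± 2.67 against 24.8 ± 0.57 FPKM, while Csf3 and Csf2, the granulocyte and granulocyte-macrophage growth factors, were lower, at 9.84 ± 1.17 against 281 ± 11.9 and 0.987 ± 0.263 against 54.8 ± 1.02. In the BMDM knockout with LPS, where Nfkbiz at 105 ± 1.67 against 93.3 ± 2.2 FPKM was not called (adjusted p = 0.137, limma), 4 of the 8 were higher and none lower, against 3.23% and 1.53% of all genes, with Csf3 at 2.08 ± 0.241 against 0.243 ± 0.0764 and Lcn2, an iron-trapping protein, at 9.66 ± 0.743 against 4.13 ± 0.299.

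Finally, the genes whose levels followed each member most closely were named by the smaller of the Pearson correlations of log2(FPKM + 0.1) over the 12 RAW264.7 and the 12 BMDM libraries, among 9472 genes at a mean of 1 FPKM or more in both. These values are descriptive, since all libraries share the same LPS treatment and most of the spread is between PBS and LPS. Nfkbia was closest to the cytokine gene Tnf (0.9982) and to Socs3 (0.998), an inhibitor of cytokine signalling. Nfkbiz was closest to Il6 (0.9982) and Peli1 (0.998), and Tnfaip3 to Bcl2a1a (0.998) and Peli1 (0.9973). Rel followed Tank (0.9947), a TRAF-binding adaptor, and Etv6 (0.994), Nfkb1 followed Pde4b (0.9988) and Slc11a2 (0.9968), and Nfkb2 followed Src (0.9976) and Nfkbiz (0.9973). Relb was closest to Ccrl2 and Cebpd, Nfkbie to Adora2a and Edn1, and Bcl3 to Cd40 and Tnfaip2, all between 0.9909 and 0.9949. Rela had the lowest best likeness, 0.9335 with Lmo4, followed by Gna15 at 0.9287.

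Locations of the 10 genes in GENCODE M21 (GRCm38) show no shared cluster: Nfkb2 (chromosome 19, 46304320 to 46312385, plus strand) and Rela (chromosome 19, 5637483 to 5648130, plus strand) lie on 1 chromosome, and so do Relb (chromosome 7, 19606217 to 19629438, minus strand) and Bcl3 (chromosome 7, 19808462 to 19822770, minus strand). Nfkbia spans 55489410 to 55492647 on chromosome 12, Nfkbiz 55811375 to 55838899 on chromosome 16, Rel 23736847 to 23770970 on chromosome 11, Tnfaip3 19000910 to 19015657 on chromosome 10 and Nfkb1 135584655 to 135691547 on chromosome 3, all on the minus strand, and Nfkbie spans 45555703 to 45563169 on the plus strand of chromosome 17. Nfkb2 overlaps Psd by 299 bases and 4833438C02Rik by 1317 bases on the opposite strand, Bcl3 overlaps Gm16175 and Gm16174 likewise, and Nfkb1 contains Gm43430 on its own strand. Whether counting used strand is not given in the sources used here, so reads of Nfkb2, Bcl3 and Nfkb1 could in part be exchanged with those genes, of which Psd had at most 2067 counts in a library and Gm43430 at most 25.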

How the data were processed

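Total RNA was sequenced as poly(A) libraries on Illumina or MGI instruments by a service company, and per the labels the genome build was mm10; the aligner and the counting program: not given in the sources used here. For each cell type the authors deposited 1 table with raw counts per gene, FPKM computed from them and the exonic gene size in bases (another column). Of FPKM values with over 50 counts, 99.9% (RAW264.7) and 99.5% (BMDM) lay within 1% of the count divided by that size and the library total. Coordinates in the tables matched GRCm38 for 2.76% of 52073 genes found by ID in GENCODE M21, so locations were taken from GENCODE by gene ID.

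The test (limma) and the thresholds on the adjusted p and the fold change follow the study's methods, while the log2(FPKM + 0.1) scale and the fit over all groups were chosen here. limma (3.58.1, R 4.3.3) was fitted once per cell type over 12 libraries in 4 groups, for genes with any FPKM above 0. P-values were adjusted over all genes tested by the Benjamini-Hochberg method, with calls at 0.05 and 1.5-fold. A fold change of exactly 1.5 counted as reached, with a tolerance of 1e-09 on the log2 scale added after the counts were first seen. It admitted 3 genes in BMDMs with PBS, 5 in BMDMs with LPS against PBS in wild type and 3 in the BMDM interaction, none a member. The fold change on this scale understates that of low genes. Counts entered edgeR (4.0.16, quasi-likelihood) and DESeq2 (1.42.0) as alternatives; other pseudocounts (0.01 and 1), an FPKM minimum of 1 in 3 libraries, an intensity trend, TPM and median-ratio scaling, fits of the compared groups alone, a replicate block, the adjusted p alone and leaving out each library were also tried. Leaving out the RAW264.7 library that stood apart was repeated for the lists after the data were seen. Scripts were tested on simulated data. Subunit shares, orders and likeness were described without tests.

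The members and lists were chosen with earlier results of these data known. Named genes were Olfml3, the 10 members, at most 3 called genes per list and comparison with the smallest adjusted p and a mean of at least 1 FPKM, and the 2 genes most like each member. The lists for B cells, T and NK cells and stromal cells summed to at most 1.73 FPKM in any library, and neutrophil genes to at most 8.61. The lowest count of a member in a library was 44 in RAW264.7 cells and 187 in BMDMs.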

Additional observations from a re-analysis of the deposited data

Results flagged for a closer look

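The response of Nfkbiz to LPS differed between the genotypes in RAW264.7 cells by the interaction term, with a log2 difference of 1.05, and lay between 0.98 and 1.12 under the 22 alternatives tried. With LPS, 4 genes had every knockout library on 1 side of wild type in RAW264.7 cells and every knockout library on the other side in BMDMs. The share of all genes that did so is not given here, so this count has no background. In RAW264.7 cells and BMDMs in turn, the log2 differences were 1.47 and -0.26 for Rel, -0.27 and 0.08 for Relb, -0.09 and 0.36 for Nfkbia, and 0.34 and -0.33 for Nfkbie. Of these, Relb in BMDMs turned to -0.07, -0.06 and -0.07 under median-ratio scaling, edgeR and DESeq2, and Nfkbia in RAW264.7 cells to 0.14 under TPM scaling, so their opposite sides depend on the scaling. The difference between the cell types was not tested, because the tables were normalised separately, and the RAW264.7 libraries carry Olfml3 levels that go against their label.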

How the results depend on the processing

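The number of members called stayed the same in all 4 comparisons of LPS with PBS under every alternative but 1: in knockout-labelled RAW264.7 cells the adjusted p alone gave 10 in place of 9, adding Rela, which was lower. For RAW264.7 genotypes with PBS it was 1, 3 with TPM scaling or the adjusted p alone, 2 with edgeR or DESeq2, 0 with the groups compared alone and 0 to 4 when leaving out each library; the value of 4 came without the knockout-labelled library that stood apart. With LPS it was 3, and 5 with TPM scaling or the adjusted p alone. The RAW264.7 interaction went from 1 to 2 with a pseudocount of 1 or DESeq2. In BMDMs, where it was 0, the adjusted p alone gave 3 with PBS, 6 with LPS and 2 for the interaction, and median-ratio scaling, edgeR and DESeq2 each gave 1 for the interaction. Shares of all genes under the adjusted p alone are not given here. Changes of sign met only small values that were not called. Between RAW264.7 genotypes TPM scaling turned Rela, Relb and Nfkbia with PBS to 0.18, 0.12 and 0.03, and Rela, Nfkbia and Bcl3 with LPS to 0.11, 0.14 and 0.16, and median-ratio scaling, edgeR and DESeq2 turned Nfkb2 with PBS to -0.04 each. In BMDMs with PBS, Nfkbiz turned to -0.03 with median-ratio scaling and to -0.04 with edgeR and DESeq2, and Bcl3 to 0 with both. With LPS, median-ratio scaling, edgeR and DESeq2 turned Relb to -0.07, -0.06 and -0.07, and Tnfaip3 to -0.13, -0.12 (adjusted p = 0.00876) and -0.13 (adjusted p = 0.00159). Leaving out each library gave, for RAW264.7 genotypes with PBS, -0.05 to 0.07 for Nfkb2, -0.05 to 0.03 for Rela, -0.22 to 0.03 for Relb and -0.1 to 0.27 for Nfkbie, with LPS -0.15 to 0.01 for Bcl3, and for the interaction -0.06 to 0.09 for Nfkb1 and -0.01 to 0.15 for Nfkbia. In BMDMs it gave -0.06 to 0.06 for Nfkbiz and -0.01 to 0.08 for Bcl3 with PBS, and 0 to 0.05 for Tnfaip3 with LPS. The cause of these moves was not tested. Of the genes that passed edgeR's own filter on low counts, edgeR called 22.8% and 33% between RAW264.7 genotypes with PBS and LPS. It called 31.2% and 37.9% for LPS in wild type and knockout-labelled cells and 3.23% for the interaction. In BMDMs it called 3.77%, 9.1% and 5.68% for the genotypes with PBS, with LPS and the interaction. The limma shares stand in the report by direction. They are over all genes with any FPKM above 0, so they cannot be set directly against the edgeR shares. Deviations of samples with the same replicate number correlated at -0.0395 to 0.0844 in RAW264.7 cells (mean 0.0146, against -0.00712 for different numbers) and at -0.0579 to 0.0711 in BMDMs (mean 0.0186, against -0.00931), none above 0.1, so the numbers were not taken to pair the samples. A replicate block left the counts of members called at 1, 3, 9, 9 and 1 in RAW264.7 cells and 0, 0, 10, 10 and 0 in BMDMs. A sample correlated best with its own number, out of 3, in 14 of 36 and 23 of 36 cases. Whether the BMDM samples were paired by number was thus not settled.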
